A study of Mus musculus with 38 samples.

Results

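The effect of a new place, without a shock, on cells carrying the Arc reporter was examined in 7 of the 38 deposited libraries: the dVenus+ libraries of 4 no-shock (NS) mice, numbered 18 to 21, and of 3 home cage (HC) mice, numbered 15 to 17. The members were chosen from the sample titles by training and by reporter, and every library came from a different mouse, so that the comparison was unpaired. All 7 mice were male Arc::dVenus transgenic animals on the C57BL/6J strain, 8 to 12 weeks old, in which a destabilised fluorescent protein, dVenus, is made under the promoter of Arc. NS mice were placed in the conditioning chamber and heard 3 tones but received no foot shock, whereas HC mice were not exposed to the chamber. Fluorescent cells of the dentate gyrus, which the study describes as granule neurons, were aspirated from slices with glass pipettes 24 h later. From these, 10 cells were pooled per library, and full-length cDNA was made by Smart-seq2. The other libraries of the study were dVenus- cells of the same 7 mice and dVenus+ and dVenus- cells of fear-conditioned (FC) mice. Since cells of both groups were picked by the same reporter, the comparison asks what differed between reporter-positive cells after context exposure and reporter-positive cells of undisturbed animals, and not how many cells became positive.

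Granule neurons of the dentate gyrus receive the input of the entorhinal cortex and pass it to area CA3, and only a sparse set of them fires in any 1 place. Firing lets calcium enter, and kinases then activate transcription factors such as CREB. Immediate early genes (Arc, Fos, Egr1, the Nr4a family) are transcribed within minutes, and for most of them the RNA decays within hours. A slower set, with the growth factor Bdnf, the activin subunit Inhba and the granin Scg2, follows. Arc is an exception in the paper, which reports its expression in the dentate gyrus as still present the day after fear conditioning. Engram cells are those active during an experience that are needed to recall it, and the Arc reporter marks candidates.

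The labels and libraries were examined first. In 3 of the 7 libraries (HC mouse 16 and NS mice 19 and 21) the free-text description carried the code otherwise used for non-fluorescent cells, whereas the title said dVenus+. Arc counts ranged from 502 to 6397 in the 7 libraries titled dVenus+ and from 0 to 51 in the 7 dVenus- libraries of the same mice, and the titles were used. Between 5713182 and 8470731 reads per library were counted on genes. The 45S ribosomal RNA precursor, Rn45s, took 30.9% to 65.3% of them in NS and 33.2% to 70.0% in HC mice, so that between 2110348 and 4984105 counts remained for other genes. Between 5476 and 8895 genes had 10 or more counts. HC mouse 16 stood apart, with the highest share of Rn45s, the fewest genes at 10 counts and the lowest TMM factor (0.459, against 0.755 to 1.84 in the other 6 libraries). For 12 library measures a two-sided exact permutation test between the groups gave p = 0.514 to 0.971, where the 35 splits of 7 libraries allow no p below 0.0571. Prox1, which defines granule neurons, had 29 to 151 counts in the 7 dVenus+ libraries and 110 to 2417 in the 7 dVenus- libraries of the same mice. Rbfox3, a marker of neurons, had 187 to 1769 counts in the dVenus+ and 932 to 3544 in the dVenus- libraries. Which cell types the pools held was not tested. Xist, an RNA of the inactive X chromosome, had 246 counts in NS mouse 21 and 53 in HC mouse 15, although all mice were stated to be male. In the same libraries the Y-linked genes Ddx3y and Eif2s3y had 730 and 40 counts (NS mouse 21) and 130 and 285 (HC mouse 15). In the dVenus- libraries of these mice Xist had 1 and 2 counts. The source of the Xist reads was not tested.

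**Figure D1:**
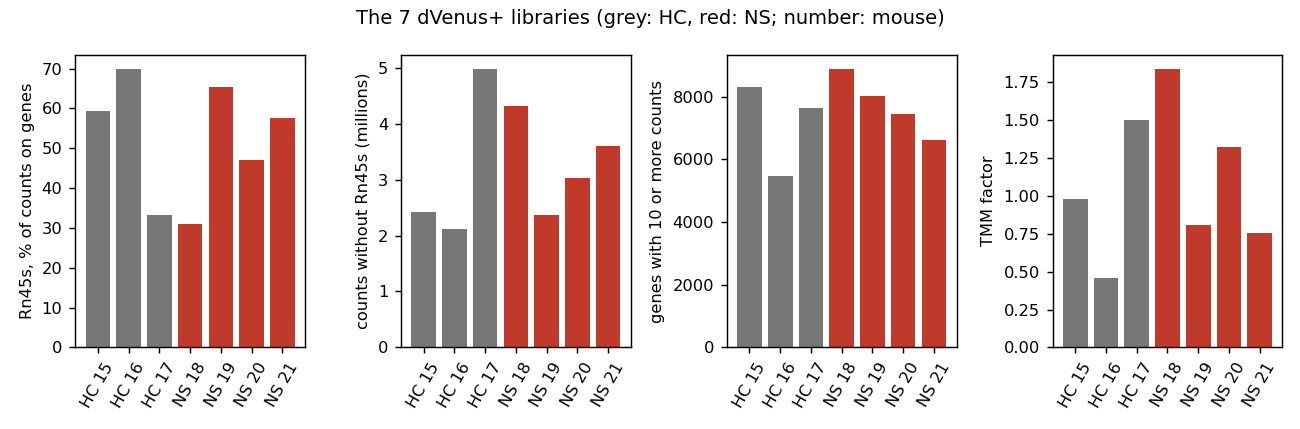
Bars give, for each of the 7 dVenus+ libraries (grey HC, red NS, number of the mouse on the x axis), the percent of counts on Rn45s, the counts left without it (y axis scaled by 1e6), the number of genes with 10 or more counts and the TMM factor. HC mouse 16 has the highest Rn45s share (70.0%) and the lowest TMM factor (0.459), and the other bars of both groups overlap.

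No gene was called between NS and HC dVenus+ cells. In 3 or more libraries 8706 genes reached 10 counts and were tested, and 0 of them had an adjusted p under 0.05 (edgeR, Benjamini-Hochberg) with a log2 fold change beyond 1 (0% called in either direction), and the smallest adjusted p was 0.489. At an unadjusted p under 0.05 there were 773 genes (8.88%), of which 465 were higher in NS (5.34%) and 308 higher in HC (3.54%). A gene read in 1 group alone passes the filter through 3 of 4 NS libraries, but only through all 3 HC libraries. Without a count filter, 812 genes at this p were higher in NS and 833 higher in HC. With 10 counts required in 6 libraries these numbers were 111 and 101. With edgeR's older quasi-likelihood method, an alternative chosen after seeing the data, 0 genes were called and 300 had an unadjusted p under 0.05. DESeq2's Wald test called 110 genes, 86 higher and 24 lower in NS, with 713 at an unadjusted p under 0.05. limma voom called 1 gene, the mitochondrial leucyl-tRNA synthetase gene Lars2, with 394 at an unadjusted p under 0.05. With the 4 libraries whose titles and descriptions both marked dVenus+ (HC mice 15 and 17, NS mice 18 and 20), edgeR also called 0 genes, with 228 at an unadjusted p under 0.05. All 110 genes called by DESeq2 had an unadjusted p under 0.05 in edgeR, 76 of them had groups that did not overlap, and in 30 every library of 1 group was at 0. Lars2 was named after its values were seen, and its groups overlapped widely: it had 88920, 256900 and 30500 normalised CPM (counts scaled to a common library size) in HC mice 15, 16 and 17 and 17710, 109200, 48610 and 158600 in NS mice 18 to 21. Lars2 took 3.17% of counts in NS mouse 18, where the Rn45s share was lowest (30.9%). It took 11.7% in HC mouse 16, where that share was highest (70.0%), and 11.9% in NS mouse 21 (Rn45s 57.6%). Whether these reads came from the messenger RNA of the gene was not tested.

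The spread between libraries limited what could be seen. Each library was 1 mouse and 1 pool of 10 cells, so spread between mice and spread between pools cannot be told apart. The biological coefficient of variation, the spread between libraries beyond counting error, was 1.45. Of the genes tested, 2900 had 10 or more counts in all 7 libraries and 1455 in exactly 3. The median standard error of a log2 fold change was 1.39, and 1.09 for the genes at 10 counts in all libraries. For 0 genes did the 95% interval lie within 1 log2 unit of 0, and for 260 genes (2.99%) it lay within 2 units. Spearman's rho between pairs of libraries across genes was 0.382 to 0.432 within NS, 0.361 to 0.389 within HC and 0.344 to 0.449 between NS and HC mice. The 3 ranges overlapped. These values are across genes, which are not independent replicates.

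**Figure D2:**
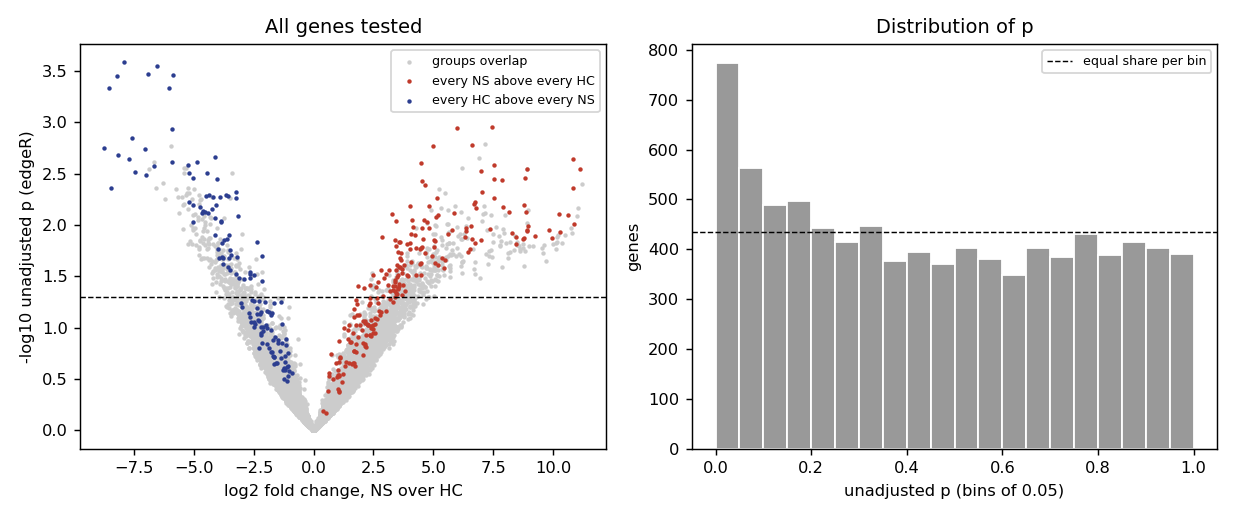
The left panel plots the log2 fold change of NS over HC against −log10 of the unadjusted p for the 8706 genes tested, with genes whose groups do not overlap in colour and a dashed line at p of 0.05. The right panel counts genes in bins of p, where the lowest bin holds 773 genes.

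edgeR called no activity gene, DESeq2 called 1 of them (Nr4a1), and for the abundant Arc, Bdnf and Scg2 the groups overlapped. In what follows a call is one by edgeR unless another tool is named, and of the members of the gene lists that are described, other than those called in FC mice, DESeq2 called Nr4a1 alone. All levels below are normalised CPM, given for HC mice 15, 16 and 17 and then for NS mice 18, 19, 20 and 21. Arc, whose protein binds the postsynaptic cytoskeleton and whose promoter drives the reporter, had 176, 191 and 420 CPM in HC and 573, 92.2, 98.0 and 314 in NS mice. The NS libraries lay on both sides of the HC libraries, and the log2 fold change was 0.04 ± 0.75 (SE; 95% interval -1.56 to 1.63; adjusted p = 0.995, edgeR with Benjamini-Hochberg adjustment). Without NS mouse 18 it was -0.65, and with the 4 libraries whose descriptions also marked dVenus+ it was 0.19. In pools of 10 cells, fewer cells with an RNA and less of it per cell cannot be told apart. Cells of both groups were picked by a reporter under the Arc promoter, so their Arc levels are not independent of that choice. By antibody staining, the paper reports a larger share of dVenus+ cells with Arc protein in NS than in HC mice. That is a measure of protein in single cells and not of RNA in pools. Bdnf, the neurotrophin that acts on the receptor TrkB, had 162, 127 and 270 CPM in HC and 195, 126, 259 and 262 in NS mice, with a log2 fold change of 0.17 ± 0.69. Scg2, a granin of dense-core vesicles, had 214, 247 and 458 CPM in HC and 240, 204, 354 and 492 in NS mice, with a log2 fold change of 0.07 ± 0.63. These intervals reached 1.64 log2 units for Bdnf and 1.42 for Scg2 at the upper end and -1.29 and -1.27 at the lower end. Changes within those bounds are compatible with these values, and the bounds are not limits of detection.

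Inhba, which encodes a subunit of activin, had 24.1, 219 and 62.7 CPM in HC and 63.7, 14.1, 68.0 and 187 in NS mice. Its log2 fold change was -0.28 ± 0.99, 0.93 without HC mouse 16, which held the highest HC value, and 0.60 with the 4 libraries whose descriptions also marked dVenus+. Inhba counts were 77 to 1186 in the 7 dVenus+ libraries and 0 to 26 in the dVenus- libraries of the same mice. Penk, the precursor of enkephalin peptides, had 249, 85.9 and 5.50 CPM in HC and 276, 72.5, 199 and 115 in NS mice, a log2 fold change of 0.55 ± 0.97. Sorcs3, a sorting receptor, had 237, 1.25 and 176 CPM in HC and 118, 18.4, 12.5 and 268 in NS mice. Each of these 3 genes varied more between mice of 1 group than between the group means.

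Of the 20 immediate early genes listed, 9 passed the count filter, 0 were called by edgeR and 1 by DESeq2. Over all 8706 genes tested DESeq2 called 110. At an unadjusted p under 0.05 there was 1, Nr4a1, an orphan nuclear receptor (chr15:101253902-101274795, GRCm38.p6, the assembly of the mm10 build used by the authors). Nr4a1 was at 0 in all HC libraries and at 5.82, 0, 70.0 and 70.3 CPM in NS mice 18 to 21, from 65, 0, 520 and 445 counts. Against 3 counts set for each HC library, the NS mean was 63.3-fold higher. This is a ratio to a set floor and not a lower limit. The 95% interval of the log2 fold change was 3.55 to 18.5. With every HC library at 0, that log2 fold change depends on the small count edgeR adds, so this interval is not a lower limit either. However, NS mouse 19 was at 0 as the HC mice were, and the adjusted p was 0.489 (edgeR with Benjamini-Hochberg adjustment). DESeq2's Wald test gave Nr4a1 an adjusted p of 0.00733. In the dVenus- libraries Nr4a1 had 0 or 1 counts in all 7 mice. Jun, a subunit of the AP-1 factor, had 26.8, 8.72 and 45.3 CPM in HC and 84.0, 43.1, 82.0 and 84.5 in NS mice, a log2 fold change of 1.43 ± 1.01. Only the NS value of mouse 19 fell within the HC range. Gadd45b, which takes part in DNA demethylation and stress responses, had 0.521, 9.65 and 5.50 CPM in HC and 4.39, 0.184, 75.8 and 64.9 in NS mice, so that 2 NS mice were high and 2 were within or below the HC range. Its log2 fold change was 2.86 ± 1.63. Junb had 3.13, 0.311 and 40.8 CPM in HC and 21.6, 1.47, 40.0 and 53.4 in NS mice.

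Egr1, a zinc finger factor, had 7.12, 38.9 and 66.9 CPM in HC and 2.87, 20.9, 11.3 and 11.1 in NS mice, a log2 fold change of -1.73 ± 1.23. Fos, the partner of Jun, did not pass the filter: its counts were 1, 36 and 2 in HC and 2, 1, 2 and 2 in NS mice. Of the 11 immediate early genes below the filter, Egr4 was at 0 in all 7 libraries. Several others were read mainly in a single library, of either group. Fosb had 204 counts in NS mouse 20, Egr3 had 266 in NS mouse 19 and Maff had 32 in NS mouse 19, each with at most 7 counts in every other dVenus+ library. On the HC side, Ier2 had 120 counts and Nr4a3 had 23 in HC mouse 15, each with at most 11 in every other dVenus+ library. Dusp1, which encodes a phosphatase of MAP kinases, had 778 counts in HC mouse 17 and 508 in NS mouse 18, and 0 or 1 counts in the other 5. These genes were named after their values were seen. The NS mouse with the highest count differed from gene to gene.

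Among 28 delayed activity genes, 20 were tested and 1, Rgs2, had an unadjusted p under 0.05. Rgs2 (chr1:143999338-144004149), an inhibitor of G protein signalling, had 65.8, 21.8 and 20.2 CPM in HC and 214, 40.2, 43.8 and 455 in NS mice. NS mice 18 and 21 were above every HC mouse, whereas mice 19 and 20 were not. The log2 fold change was 2.39 ± 1.03 (adjusted p = 0.514, edgeR with Benjamini-Hochberg adjustment) and 1.47 without NS mouse 21, or 1.60 with the 4 libraries whose descriptions also marked dVenus+. The median log2 fold change was 0.04 over the 9 immediate early genes and 0.12 over the 20 delayed genes, against 0.07 over all genes tested, and the unadjusted counts of 1 in 9 and 1 in 20 stand beside 8.88% of all genes.

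The promoters of Nr4a1 and Rgs2, the genes of both activity lists with the smallest p, are shown because CREB binds the cyclic AMP response element, whose core is TGACG or, on the other strand, CGTCA. The 250 bases before the start that the RefSeq promoter table uses are printed 5′ to 3′ on the strand of the gene (RefSeq, GRCm38.p6), with every match in capitals. They lie at chr15:101266596-101266845 on the plus strand and at chr1:144004150-144004399 on the minus strand. For Nr4a1 this start lies inside the RefSeq gene interval given above, which also covers transcripts that begin further upstream, whose promoters are not shown.
Nr4a1: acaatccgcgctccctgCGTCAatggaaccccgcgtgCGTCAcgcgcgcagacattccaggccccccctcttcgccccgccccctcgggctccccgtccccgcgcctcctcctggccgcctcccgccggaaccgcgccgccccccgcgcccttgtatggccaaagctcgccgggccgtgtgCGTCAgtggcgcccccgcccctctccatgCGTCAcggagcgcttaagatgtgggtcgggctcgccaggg
Rgs2: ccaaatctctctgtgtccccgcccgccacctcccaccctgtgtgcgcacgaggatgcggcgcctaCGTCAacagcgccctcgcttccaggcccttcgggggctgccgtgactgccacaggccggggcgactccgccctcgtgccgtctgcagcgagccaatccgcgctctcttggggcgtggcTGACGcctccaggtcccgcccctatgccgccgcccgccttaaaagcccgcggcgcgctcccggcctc
Nr4a1 held 4 matches and Rgs2 held 2, all of them half-sites and none the full element. A match was found in 17.9% of 27025 mouse promoters of this length, at least 2 matches in 4.02% and at least 4 in 0.152%. Of the 48 genes of both activity lists, 38 had a sequence and 20 of these held a match (52.6%). A match describes the sequence and is not evidence of binding in these cells.

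**Figure D3:**
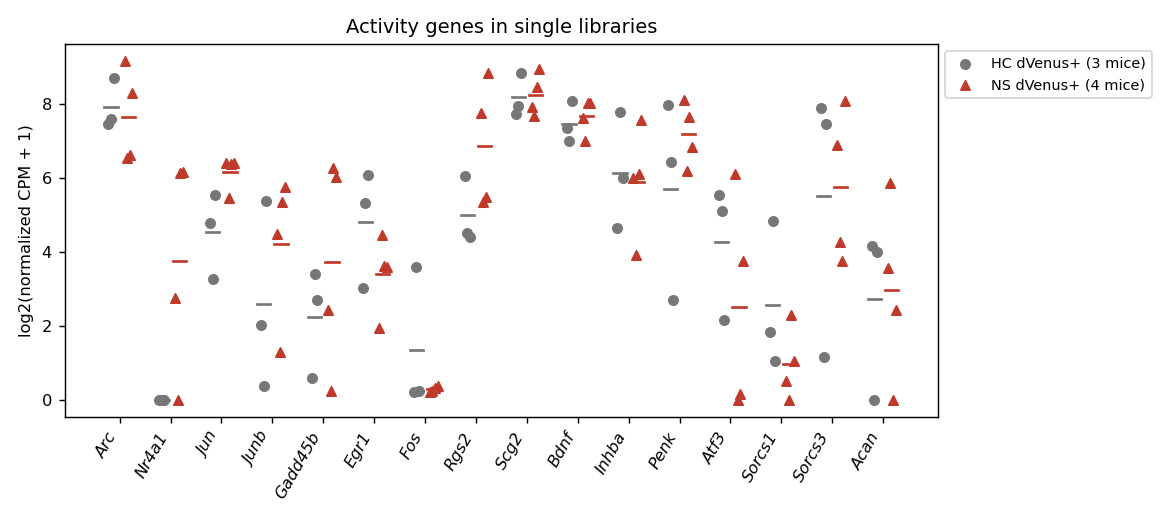
Each point is 1 library, with the level as log2(normalised CPM + 1) on the y axis, for 16 activity genes on the x axis (grey circles HC, red triangles NS, short lines the group means on this scale). Nr4a1 is at 0 in the 3 HC mice and in 1 NS mouse, and for the other genes the points of both groups overlap.

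The genes and factors the study discussed for the engram gave no call. Of 14 CREB1 targets named by the study, 13 were tested, 0 were called and 0 had an unadjusted p under 0.05, with a median log2 fold change of 0.04. The study chose these targets on FC libraries, so the list is not independent of its other samples. Of 13 CREB factors and coactivators, 9 were tested, also with 0 at an unadjusted p under 0.05 and a median of 0.03. Of 14 engram genes of the study, 11 were tested, again with 0 at an unadjusted p under 0.05 and a median of -0.28. Atf3, a stress-induced factor of the CREB family, had 45.3, 33.9 and 3.48 CPM in HC and 67.9, 0, 0.135 and 12.5 in NS mice. Its log2 fold change was -0.41 ± 1.53, from -2.66 without NS mouse 18 to 0.17 without HC mouse 15, and 0.51 with the 4 libraries whose descriptions also marked dVenus+. Acan, the aggrecan of perineuronal nets, had 17.0, 0 and 15.2 CPM in HC and 11.0, 57.3, 0 and 4.42 in NS mice, a log2 fold change of 0.68 ± 1.58, or -1.49 with those 4 libraries. Sorcs1 had 2.60, 27.7 and 1.10 CPM in HC and 0.448, 0, 3.90 and 1.10 in NS mice, a log2 fold change of -2.80 ± 1.49. It was -0.35 without HC mouse 16 and 0.23 with the 4 libraries whose descriptions also marked dVenus+. The potassium channel subunit Kcnq3 was below the filter, with 0, 79 and 53 counts in HC and 0, 1, 3 and 0 in NS mice. In the edgeR fit without a count filter its log2 fold change was -5.85 (unadjusted p = 0.0224, adjusted p = 0.433).

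Genes called between dVenus+ and dVenus- cells of FC mice, which share no library with NS or HC mice, gave a wider view. In the 12 FC mice, 146 genes were called higher and 276 lower in dVenus+ cells. Of the 146, 134 were tested between NS and HC, 0 were called by edgeR and 1 by DESeq2 (Clpx), 2 were higher and 1 lower in NS at an unadjusted p under 0.05, and the median log2 fold change was 0.23. Of the 276, 235 were tested, 0 were called by edgeR and 1 by DESeq2 (Mcee, named after its values were seen), 9 were higher and 4 lower at an unadjusted p under 0.05, and the median was 0.03. Over all genes the median was 0.07, and 5.34% were higher and 3.54% lower in NS at an unadjusted p under 0.05. DESeq2 called 110 of all 8706 genes tested. Leaving out each mouse in turn, the first median ranged from -0.12, without NS mouse 21, to 0.48, and the second from -0.17 to 0.58. The 3 genes of the first set at an unadjusted p under 0.05 were Rgs2 (above), Clpx, a mitochondrial protease subunit, with a log2 fold change of 6.21 ± 1.81 and named after its values were seen, and Bag3, a co-chaperone, with -4.57 ± 1.81. Bag3 had 11.3, 130 and 4.67 CPM in HC and 0, 8.99, 0 and 0 in NS mice, and its log2 fold change was -1.99 without HC mouse 16.

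Neurotransmission genes also gave no call. Ntrk2 (chr13:58806472-59133970), which encodes TrkB, the receptor of BDNF, was among the genes without overlap, with 159, 413 and 82.0 CPM in HC and 62.7, 56.7, 13.5 and 34.0 in NS mice. Every NS mouse was below every HC mouse, which held for 1.61% of all genes in this direction. The log2 fold change was -2.38 ± 0.87 (adjusted p = 0.489, edgeR with Benjamini-Hochberg adjustment), -1.54 without HC mouse 16, and -1.65 with the 4 libraries whose descriptions also marked dVenus+. Acvr2b, an activin receptor, had 1.91, 0 and 0 CPM in HC and 0, 4.41, 11.3 and 35.8 in NS mice. Ntrk2 and Acvr2b were the members of 13 tested neurotrophin and activin genes with an unadjusted p under 0.05, beside 8.88% of all genes. The list's median log2 fold change was 0.17.

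Potassium channels set the firing threshold and repolarise the neuron. Of 46 such genes, 38 were tested, 0 were called, and 3 had an unadjusted p under 0.05, all higher in NS, beside 5.34% of all genes in that direction and 8.88% in both. Kcnk2, a leak channel, had 1.56, 3.11 and 0.367 CPM in HC and 3.13, 5.51, 15.3 and 39.3 in NS mice, a log2 fold change of 3.48 ± 1.64. Kcnj2, an inward rectifier, had 5.04, 0.623 and 2.66 CPM in HC and 69.8, 78.0, 0.135 and 2.21 in NS mice, so that 2 NS mice were high. Kcnq5, an M-current channel, had 0, 0 and 0.275 CPM in HC and 3.13, 10.3, 8.35 and 0 in NS mice. Kcnd2, which carries the A-type current of dendrites, was more abundant: it had 25.7, 47.3 and 79.0 CPM in HC and 159, 88.3, 292 and 158 in NS mice. All NS mice were above all HC mice, and the log2 fold change was 1.78 ± 0.85, with an interval of -0.03 to 3.58. Kcnk1 lay the other way, with 173, 167 and 362 CPM in HC and 141, 109, 91.4 and 79.3 in NS mice, a log2 fold change of -1.15 ± 0.72. The groups did not overlap for 3 channels higher in NS and 1 higher in HC, beside 2.6% and 1.61% of all genes. The median over the 38 was -0.14, of the opposite sign to the 3 genes at an unadjusted p under 0.05.

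For glutamate receptors and scaffold genes (30 tested, 0 called, 0 at an unadjusted p under 0.05) the median was 0.24. Gria2, the AMPA receptor subunit that blocks calcium entry, had 327, 260 and 379 CPM in HC and 628, 392, 549 and 438 in NS mice. The groups did not overlap, with a log2 fold change of 0.64 ± 0.57 (interval -0.56 to 1.84). For GABA genes (21 tested, 0 called, 0 at an unadjusted p under 0.05) the median was 0.11. Gabra4, a subunit of extrasynaptic GABA-A receptors, had 145, 201 and 200 CPM in HC and 113, 38.5, 29.9 and 48.5 in NS mice, again without overlap, with a log2 fold change of -1.66 ± 0.81 and an interval of -3.38 to 0.06. Of 37 synaptic vesicle and SNARE genes and 21 calcium calmodulin kinase and phosphatase genes tested, 0 were called and 0 had an unadjusted p under 0.05, with medians of -0.18 in both. The same held for 25 sodium, calcium and HCN channels (median 0.39) and 14 neuropeptides and granins (median 0.03).

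The genes measured most precisely were abundant ones. For the chaperone Hsp90ab1 the log2 fold change was -0.28 ± 0.45, with an interval of -1.23 to 0.68. The nuclear RNA Malat1 gave -0.38 ± 0.37, with an interval of -1.17 to 0.40. Both intervals lay between -1.23 and 0.68 log2 units.

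Stress, clock and chromatin genes gave single members and no call. Exposure to a chamber can raise corticosterone, and of 16 glucocorticoid response genes 11 were tested with 0 at an unadjusted p under 0.05 and a median of 0.40. Sgk1, a kinase induced by the glucocorticoid receptor, had 17.4, 28.9 and 105 CPM in HC and 10.9, 0, 8.35 and 264 in NS mice. Of 16 circadian clock genes tested, 1 had an unadjusted p under 0.05: Arntl, which encodes the activator BMAL1, with 0.347, 0 and 3.12 CPM in HC and 21.2, 0.551, 0 and 125 in NS mice, so that 2 NS mice were within the HC range. The clock list's median was 0.42. The integrated stress response (16 tested, 0 at an unadjusted p under 0.05) had a median of 0.51. Of 21 heat shock genes Bag3 was the member at an unadjusted p under 0.05, and the median was -0.31. Of 24 DNA methylation and histone deacetylase genes, Hdac3 had 0.347, 0.934 and 1.47 CPM in HC and 8.42, 0, 38.5 and 28.9 in NS mice, and Hdac5 had 0.174, 33.6 and 1.47 CPM in HC and 0, 1.10, 1.62 and 0.631 in NS mice. Both deacetylases had an unadjusted p under 0.05, in opposite directions, and the Hdac5 value rests on HC mouse 16. The median of that list was 0.50. The members of the clock, heat shock and deacetylase lists at an unadjusted p under 0.05 stand beside 8.88% of all genes. Nuclear long noncoding RNAs (7 tested, median 0.38) and perineuronal net genes (6 tested, median -0.09) had 0 genes at an unadjusted p under 0.05.

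Housekeeping complexes gave no call. Medians were -0.01 over 36 proteasome subunits, -0.19 over 71 respiratory chain genes and -0.26 over 73 ribosomal proteins, each with 0 calls. Rpl39, a protein of the large ribosomal subunit, was the member of the 3 lists at an unadjusted p under 0.05, beside 8.88% of all genes. It had 24.3, 286 and 83.2 CPM in HC and 18.3, 6.24, 32.7 and 45.6 in NS mice, and a log2 fold change of -1.08 without HC mouse 16. Ribosomal protein genes have many processed pseudogenes that can share their reads, so single members are uncertain.

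**Figure D4:**
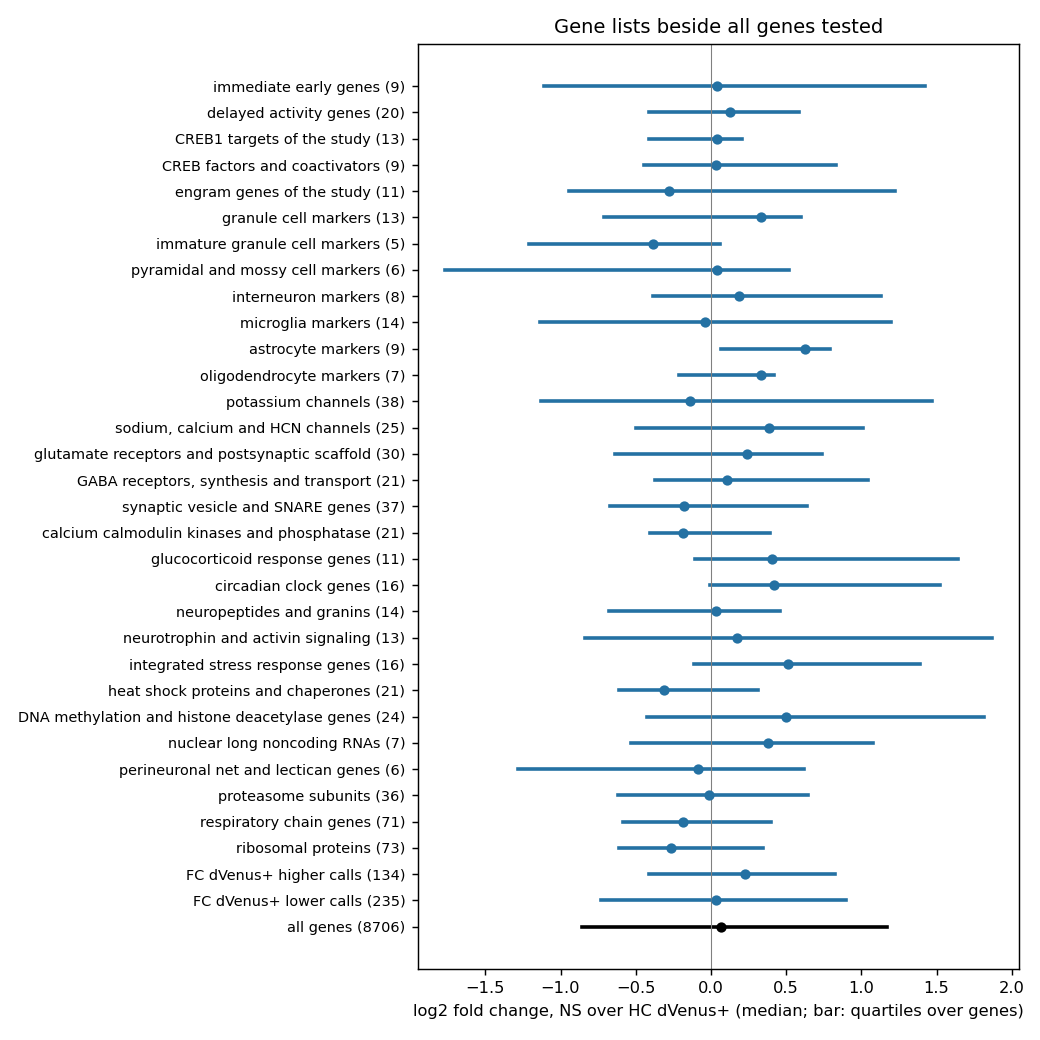
Points give the median log2 fold change of NS over HC dVenus+ cells and bars the quartiles over the genes tested (number in parentheses), for each gene list with 5 or more genes tested and, in black, for all 8706 genes. Medians lie between -0.38 and 0.62, and the quartile bars of the lists overlap that of all genes.

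Markers of other cell types were measured alongside. Granule cell markers (13 tested, median 0.33) summed to 419 to 652 CPM in NS and 357 to 978 in HC mice, with 0 at an unadjusted p under 0.05. Calb1, the calbindin of mature granule neurons, had 22.4, 84.1 and 246 CPM in HC and 11.6, 78.4, 2.29 and 6.00 in NS mice, a log2 fold change of -2.28 ± 1.19. Immature granule cell markers (5 tested, median -0.38) summed to 8.35 to 113 in NS and 32.7 to 136 in HC mice. Pyramidal and mossy cell markers (6 tested, median 0.04) summed to 51.3 to 101 and 13.7 to 146. Here 1 member, Wfs1, had an unadjusted p under 0.05 (8.88% of all genes), from 23.5 CPM in NS mouse 19 and at most 2.37 elsewhere. Interneuron markers (8 tested, median 0.19) summed to 125 to 341 and 153 to 261. Microglia markers (14 tested, median -0.04) summed to 69.9 to 1271 in NS and 381 to 1195 in HC mice, astrocyte markers (9 tested, median 0.62) to 654 to 2431 and 1129 to 1209, and oligodendrocyte markers (7 tested, median 0.33) to 720 to 1469 and 577 to 1382. Oligodendrocyte precursor markers (1 tested, 1.26) summed to 0 to 43.9 and 6.51 to 11.5, and endothelial markers (2 tested, median -0.11) to 0.632 to 39.3 and 0 to 25.4. No glial list had a member at an unadjusted p under 0.05, and the part of these cells in the results was not tested. The list of female and male genes (4 tested) had a median of 1.34, with 0 at an unadjusted p under 0.05.

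The groups did not overlap for 226 genes higher in NS (2.6%) and 140 higher in HC (1.61%). The count filter admits genes read in NS alone more easily than genes read in HC alone, so these shares are not directly comparable. At 10 counts or more, 45 genes were found in all 4 NS and none of the 3 HC libraries, and 21 in all 3 HC and none of the 4 NS libraries. Among genes without overlap, the 10 higher in NS with the smallest unadjusted p (0.00111 to 0.00296) were Alkbh6, Sptssa, Scamp4, Rab3gap1, Mea1, Anxa6, Nrbp2, Apoo, Cog2 and Rbm7. Each had an adjusted p of 0.489 (edgeR with Benjamini-Hochberg adjustment). Mea1 (chr17:46678801-46683126) was at 0 in the 3 HC libraries and at 32.0, 22.8, 32.5 and 40.4 CPM in NS mice. Its NS mean was 55.4-fold higher against 3 counts set per HC library, and the 95% interval of its log2 fold change was 4.57 to 17.1. Apoo, a protein of the inner mitochondrial membrane, was at 0 in HC and at 12.7, 4.77, 50.9 and 89.5 CPM in NS mice. The same ratio was 68.5-fold for Apoo, with a 95% interval of the log2 fold change of 4.51 to 17.8. As for Nr4a1, the intervals of Mea1 and Apoo are not lower limits. Rab3gap1, an activator of the GTPase of the synaptic vesicle protein RAB3, had 3.65, 0 and 4.31 CPM in HC and 46.8, 31.9, 218 and 83.2 in NS mice, a log2 fold change of 5.00 ± 1.35. Sptssa, a small subunit of serine palmitoyltransferase, which starts sphingolipid synthesis, had 1.56, 0 and 0.641 CPM in HC and 35.4, 14.5, 63.1 and 92.7 in NS mice. Anxa6, a calcium-dependent membrane-binding annexin, had 12.8, 1.87 and 0.458 CPM in HC and 103, 125, 66.5 and 153 in NS mice, a log2 fold change of 4.47 ± 1.26. Cog2, a Golgi tethering subunit, had 0, 0.311 and 0 CPM in HC and 53.7, 14.3, 42.4 and 22.4 in NS mice.

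The 10 genes without overlap that were higher in HC (unadjusted p from 0.000261 to 0.00177) were Pik3r2, Twistnb, Elof1, Entpd7, Nbas, Net1, Ing2, Fez2, Twsg1 and Hspg2, with the same adjusted p of 0.489 (edgeR with Benjamini-Hochberg adjustment). Pik3r2 (chr8:70768176-70776712), a regulatory subunit of phosphoinositide 3-kinase, had 12.5, 113 and 65.1 CPM in HC and 0, 1.10, 0.135 and 0 in NS mice, a log2 fold change of -7.92 ± 1.75. Net1, an exchange factor for the GTPase RhoA, had 23.4, 47.0 and 55.3 CPM in HC and 0.0895, 0.918, 1.48 and 0.158 in NS mice. Twistnb, a subunit of RNA polymerase I, had 13.7, 31.4 and 86.2 CPM in HC and 0.627, 0.551, 0 and 0.631 in NS mice. Elof1, a transcription elongation factor, had 33.0, 150 and 60.6 CPM in HC and 0, 0, 2.56 and 0 in NS mice. Ing2, a reader of a histone methyl mark, had 49.1, 115 and 11.5 CPM in HC and 0, 0, 0 and 0.631 in NS mice. Hspg2, the basement membrane proteoglycan perlecan, was low: it had 2.26, 10.6 and 9.81 CPM in HC and 0 in every NS mouse. Its HC mean was 17.8-fold higher against 3 counts set per NS library, which is not a lower limit. Twsg1, an extracellular binder of bone morphogenetic proteins, had 18.4, 19.6 and 46.0 CPM in HC and 0.269, 0, 0.135 and 0 in NS mice. For 6 of these 10 (Pik3r2, Elof1, Entpd7, Nbas, Ing2 and Hspg2) HC mouse 16 held the highest value.

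**Figure D5:**
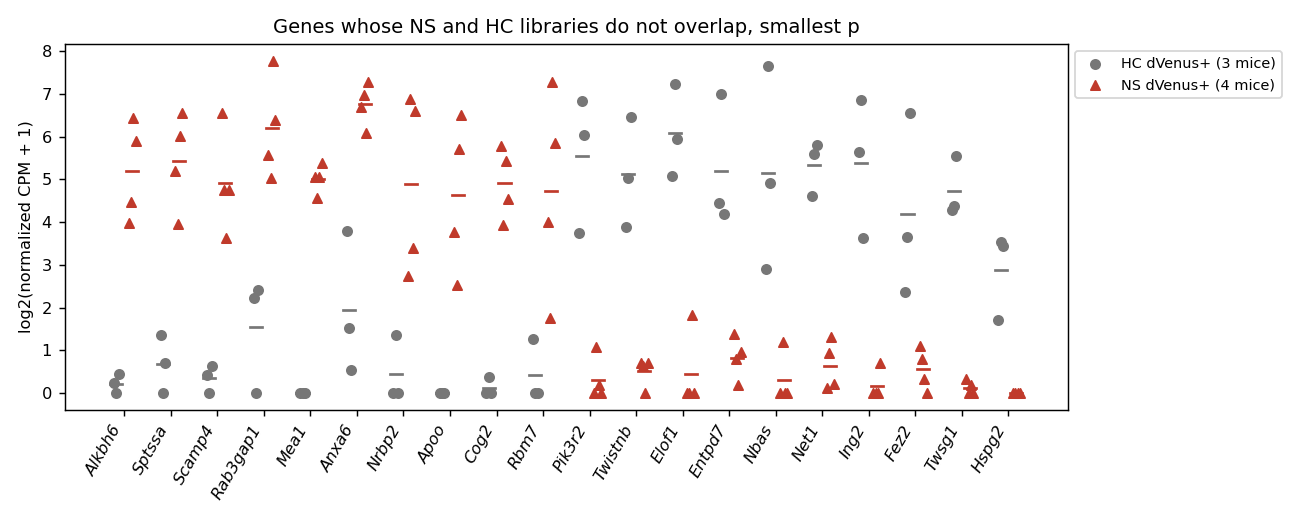
Levels as log2(normalised CPM + 1) of the 20 genes whose groups did not overlap and whose unadjusted p was smallest in each direction, 1 point per library (grey circles HC, red triangles NS, short lines the group means). The first 10 genes are higher in every NS than in every HC library and the last 10 the reverse, and Anxa6 reaches 12.8 CPM in HC mouse 15.

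Among genes at an unadjusted p under 0.05 with the largest difference of group means, Rgs2, Cct8, Ppm1h, Stmn4 and Idh3b were higher in NS. Idh3b, a subunit of mitochondrial isocitrate dehydrogenase, had 28.3, 50.1 and 85.0 CPM in HC and 150, 137, 186 and 310 in NS mice, with no overlap and a log2 fold change of 1.84 ± 0.82. Ppm1h, a phosphatase, had 8.86, 1.87 and 31.2 CPM in HC and 54.0, 35.8, 230 and 307 in NS mice, a log2 fold change of 3.42 ± 1.16. Stmn4, a neuronal regulator of microtubules, had 21.0, 16.2 and 91.7 CPM in HC and 124, 116, 99.5 and 400 in NS mice, and its log2 fold change was 2.09 ± 0.94, or 1.38 without NS mouse 21. Cct8, a chaperonin subunit, had 37.0, 7.16 and 84.2 CPM in HC and 82.8, 59.1, 192 and 619 in NS mice, and its log2 fold change was 2.46 ± 1.03, or 1.36 without NS mouse 21. NS mice 18 and 19 lay below the highest HC mouse for Cct8.

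On the HC side these were Fryl, Cd81, Eif4h, Pbrm1 and Ntrk2. Cd81, a tetraspanin of the cell surface, had 310, 137 and 361 CPM in HC and 48.4, 38.9, 6.87 and 148 in NS mice, where NS mouse 21 was just above the lowest HC mouse. Its log2 fold change was -2.16 ± 0.90. Eif4h, a cofactor of translation initiation, had 35.1, 333 and 253 CPM in HC and 40.5, 11.4, 18.7 and 6.32 in NS mice, with a log2 fold change of -3.41 ± 0.99, or -2.90 without HC mouse 16. Fryl had 701 CPM in HC mouse 16, against 2.43 and 54.6 in the other HC and 0 to 38.0 in NS mice, and its log2 fold change of -4.05 ± 1.41 was -0.93 without that mouse. Pbrm1, a subunit of a chromatin remodeller, gave -2.39 ± 0.94, and -1.20 without HC mouse 16.

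Whether the NS against HC difference was particular to dVenus+ cells was tested as an interaction over the 14 NS and HC libraries, with the mouse as block. Of 10927 genes tested, 0 were called (0% called, edgeR with Benjamini-Hochberg adjustment) and 459 (4.2%) had an unadjusted p under 0.05. DESeq2's Wald test with the same block called 474 genes. Across the 7368 genes tested in both cell types, the NS over HC log2 fold changes of dVenus+ and dVenus- cells had a Spearman's rho of -0.017 (a description across genes, from different cells of the same mice), and 3583 had the same sign. Among the genes with the smallest interaction p were Trmt2a and Nfx1 (higher difference in dVenus+) and Gcn1l1, Arih2 and Psmf1 (lower), each with an adjusted p of 1 (edgeR). Psmf1, a proteasome inhibitor, had 87.0, 332 and 0 CPM in HC and 14.0, 4.01, 17.3 and 10.9 in NS dVenus+ libraries, and 0, 0 and 0 in HC and 377, 0, 43.6 and 8.59 in NS dVenus- libraries, on the scale of the 14 libraries.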

How the data were processed

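RNA of 10 pooled dentate gyrus cells per library was amplified by Smart-seq2 and sequenced as 50-base reads. Per the submitters' processing notes the authors used TopHat2 2.0.13 and HTSeq 0.6.0 on mm10, and deposited raw counts per gene for each library. A deposited table over all libraries held the same counts for 11802 genes and was not used. Entries naming no gene stayed out of library sizes (20.0% to 44.9% of uniquely aligned reads lay outside genes). Here counts were normalised by TMM and tested with edgeR 4.0.16 (glmQLFit, glmQLFTest; R 4.3.3) on the genes that reached 10 counts in 3 or more libraries. A call required an adjusted p under 0.05 and an absolute log2 fold change over 1. The standard error was taken as the absolute log2 fold change over the square root of edgeR's F. The 95% interval used this error and a t quantile. The script was tested on simulated data. Normalised CPM used TMM library sizes, and a group at 0 was set to 3 counts per library. The FC list came from genes at 10 counts in 12 libraries, with mouse as block. Alternatives were DESeq2 1.42.0, limma 3.58.1 voom, other filters and size factors, covariates and leaving out mice. No gene was called; named genes were otherwise up to 10 in each direction by p without overlap, list members at an unadjusted p under 0.05 or among the 4 most abundant, 11 genes of the study, the leading interaction genes and the 5 largest mean differences in each direction. Every library is 1 mouse. The members and lists were chosen with earlier results of these data known. NS and HC are different mice and could not be paired. Within mice, deviations of dVenus+ and dVenus- libraries from their group means correlated at -0.069 to 0.087; the shared animal is the reason for the block in the interaction. Some genes that the rule names are not reported here.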

Additional observations from a re-analysis of the deposited data

Results flagged for a closer look

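Among the 4 NS libraries, 13 of 78 measures and genes had 1 library far from the other 3 by Dixon's test at 95%, on untransformed levels. The rate of about 1 in 20 holds for normally distributed values, which levels with a floor at 0 are not. With 3 libraries at 0 the ratio is 1 whatever the other value is, as for Bag3, Elof1, Nbas and Ing2. Some genes were also named because NS was near 0, so the count of 13 cannot be set against that rate. NS mouse 20 had 75.3 multiply aligned entries per 100 uniquely aligned reads, against 43.0 to 44.9 in the others. Jun was low in NS mouse 19, at 43.1 CPM. Single high libraries set the NS level of Arntl (125 CPM, mouse 21), Stmn4 (399.6 CPM, mouse 21), Wfs1 (23.5 CPM, mouse 19), Pbrm1 (93.4 CPM, mouse 19), Bag3 (8.99 CPM, mouse 19) and Arih2 (10.5 CPM, mouse 20). Among genes near 0 in NS, the library apart was at 1.10 CPM for Pik3r2, 2.56 for Elof1, 1.28 for Nbas, 0.631 for Ing2 and 0 for Twistnb.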

How the results depend on the processing

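With edgeR, 0 genes were called between NS and HC dVenus+ cells under every setting run, and leaving out each mouse gave 0 to 0. DESeq2's Wald test called 110, limma voom called 1. Genes at an unadjusted p under 0.05 numbered 773, against 212 with 10 counts required in 6 libraries, 1645 without a count filter, 394 with voom, 228 with the 4 libraries whose description also marks dVenus+, 300 with the older quasi-likelihood method and 907 with Rn45s left out, the last 2 chosen after seeing the data; leaving out each mouse gave 518 to 863. For the interaction, edgeR called 0 with the replicate block and 0 with no replicate block, where 642 and 726 genes had an unadjusted p under 0.05 in the directions higher and lower, and DESeq2 with the block called 474; leaving out each mouse gave 0 to 0. Medians of the genes called in FC dVenus+ cells ranged from -0.12 to 0.48 for the higher and from -0.17 to 0.58 for the lower set. Log2 fold changes of the following genes changed sign, and these genes were called under no setting. Arc was -0.28 with voom, -0.10 with the number of detected genes as covariate and from -0.65 to 0.64 when each mouse was left out. Scg2 was -0.12 with voom and -0.17 with the 4 libraries, from -0.21 to 0.54 by mouse. Bdnf ranged from -0.044 to 0.60 by mouse. Inhba was 0.018 with voom, 0.49 with the covariate and 0.60 with the 4 libraries, from -1.06 to 0.93 by mouse. Atf3 was 0.51 with the 4 libraries, from -2.66 to 0.17 by mouse. Sorcs1, at -2.80, was 0.23 with the 4 libraries. Sorcs3 ranged from -1.48 to 0.22 by mouse. Acan was -0.29 with voom and -1.49 with the 4 libraries, from -1.08 to 1.14 by mouse. Psmf1, at -3.58, was 1.34 with voom. DESeq2 called Nr4a1, Clpx, Mcee and all but Entpd7 of the 20 genes named for groups without overlap. The cause of these differences was not tested. The median standard error of 1.39 log2 units limits what 10 cells per library can show.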
